A study of Mus musculus with 21 samples.

Results

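The transcription factors that direct B and T lymphocyte development were followed across sorted mouse spleen cells to ask whether dendritic cell (DC) subsets share any of them. The set held 10 genes: Pax5, Ebf1, Pou2af1 and Bach2 of the B lineage, Tcf7, Lef1 and Bcl11b of the T lineage, and Ets1, Ikzf1 and Ikzf3, which serve both. Members were the probe sets annotated with one of these symbols and no other, 26 of the 45101 on the array. They covered 9 of the 10 genes. Tcf7 was not analysed here, because no probe set carried it as its only symbol. Of the 26 probe sets, 25 passed the filter on low signals, and the 9 genes were tested among 13284.

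RNA of 7 groups was hybridised to 21 Affymetrix arrays, 3 per group. The 33D1 antibody marks CD8-negative DCs, and the DEC205 antibody binds the product of Ly75, found on CD8-positive DCs. 33D1_WT and DEC205_WT were splenic DCs from pools of 40 to 80 wild-type C57BL6 mice. 33D1_Flt3L and DEC205_Flt3L came from pools of 20 C57BL6 mice given an Flt3L melanoma ("Flt3L Melanom" in the labels) and killed on day 10 to 12. Flt3L, the ligand of the receptor Flt3, expands DCs, and here it came with a tumour, so the effects of the ligand and the tumour cannot be told apart. B_cells, CD4_T_cells and CD8_T_cells came from 5 to 8 wild-type mice. Every mouse was on the C57BL6 background, no allele was altered, and each array was a pool. The labels do not say whether the 3 pools of a group were sorted on separate occasions, so p-values cover only pool-to-pool spread, part of which may be technical.

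In B cell development Ebf1 and Pax5 switch on the genes of the B cell receptor, and Pax5 also silences genes of other lineages. Pou2af1 is a coactivator that binds octamer factors at immunoglobulin promoters, and Bach2 is a repressor that delays the step to the plasma cell. Tcf7, Lef1 and Bcl11b act in thymocytes, where they set and hold T cell identity. Ets1 and the zinc finger proteins Ikaros (Ikzf1) and Aiolos (Ikzf3) are used by B and T cells alike, and Ikaros is also known to act in the stem and progenitor cells from which DCs arise.

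The promoters of 5 lineage-restricted members are shown because these genes separated B from T cells in the results that follow. Each is the 150 bases before 1 annotated start in RefSeq on GRCm38.p6, written 5′ to 3′ on the gene's strand, with motif matches in capitals. For Bcl11b this start lies inside the gene, whose span on the - strand begins at 108004145.
Pou2af1 (chr9:51213540-51213689, + strand): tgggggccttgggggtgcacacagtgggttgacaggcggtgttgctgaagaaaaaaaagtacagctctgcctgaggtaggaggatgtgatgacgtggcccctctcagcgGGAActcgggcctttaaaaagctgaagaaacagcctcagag
Ebf1 (chr11:44617950-44618099, + strand): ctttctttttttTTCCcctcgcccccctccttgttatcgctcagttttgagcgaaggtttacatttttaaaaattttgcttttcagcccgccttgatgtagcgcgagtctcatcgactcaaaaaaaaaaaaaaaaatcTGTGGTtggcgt
Pax5 (chr4:44710695-44710844, - strand): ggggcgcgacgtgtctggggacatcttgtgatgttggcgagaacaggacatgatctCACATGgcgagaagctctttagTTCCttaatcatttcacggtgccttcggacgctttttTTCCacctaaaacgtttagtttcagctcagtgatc
Lef1 (chr3:131110147-131110296, + strand): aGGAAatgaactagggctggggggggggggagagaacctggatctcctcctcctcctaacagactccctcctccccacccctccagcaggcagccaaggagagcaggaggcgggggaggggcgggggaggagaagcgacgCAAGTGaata
Bcl11b (chr12:108003415-108003564, - strand): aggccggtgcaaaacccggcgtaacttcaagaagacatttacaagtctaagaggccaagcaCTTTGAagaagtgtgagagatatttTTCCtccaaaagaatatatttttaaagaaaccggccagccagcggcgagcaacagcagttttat
RefSeq windows were found for 8 of the 10 members and none were listed for Ets1 or Ikzf3. There were 14 windows for these 8, so some members had more than 1 start, and 1 window was chosen per gene shown. The letters searched on both strands were the Ets core GGAA, the E box CANNTG, the Runx core TGTGGT, a Tcf or Lef motif CTTTGA, the octamer ATGCAAAT and an Ikaros motif TGGGAA, whose last letters are those of the Ets core. The Ets core was in all 5 windows and in 80.8% of 32851 promoter windows of the same length. The Runx core was found in the Ebf1 window and in 8.4% of all windows. The E box was in the Pax5 and Lef1 windows and in 47.7% of all windows. The Tcf or Lef letters were in the Bcl11b window and in 7.93% of all windows. The octamer (0.998%) and the Ikaros letters (13.1%) were in none of the 5. A match is a description of the letters and not a binding site.

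Signals are given on the deposited linear scale, on which the median of the whole table was 156.3, and array medians ran from 121.9 to 204.4. Differences are in log2(signal + 48.6) with their standard error (SE). This offset understates the change of dim genes. Each gene is given by its brightest probe set, so levels were compared between cells and never between genes. A difference was called at a Benjamini-Hochberg adjusted p under 0.05 from limma across all genes.

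The defining DC markers followed the titles. Itgax, which encodes CD11c, had mean signals of 9606 to 17680 in the 4 DC groups and 149.3 to 357.3 in the lymphocyte groups. Flt3 gave 4933 to 7898 and 107 to 156.8. Ly75 separated the subsets, with 2973 ± 252 (SD, n = 3) in DEC205_WT and 169.3 ± 50.7 in 33D1_WT. The description field calls the lymphocyte samples DCs, and their Itgax and Flt3 signals went with the titles instead. The wider list of 9 DC markers tested (10 listed) parted DCs from T cells more than from B cells. Wild-type 33D1 DCs exceeded B cells in 4 (Itgax, Flt3, Zbtb46 and Sirpa) and were lower in 2 (Ccr7 and Ly75). The other 3 were not called (H2-Aa, Cd74 and Xcr1). Of all 13284 genes, 2098 were called above B cells in this comparison and 2425 (18.3%) below. Set against the mean of both T cell groups, 33D1_WT exceeded T cells in 6 of the 9 and fell below them in 2. All genes gave 2595 above and 3287 below. For DEC205_WT the list had 5 above and 1 below B cells (all genes 2433 and 2754). It had 8 above and 1 below T cells (all genes 2881 and 3649). Summed signals were 98700 to 109100 in 33D1_WT, 75140 to 84740 in B cells and 10440 to 13330 in T cells. A pair of arrays stood apart. DEC205_WT replicate 3 had a signal of 1413 for Tgm2, a transglutaminase of 33D1 DCs, against 254.9 and 319.5 on the other DEC205_WT arrays. 33D1_Flt3L replicate 3 had 2407 for Irf8, a factor of CD8-positive DCs, against 341.2 and 371.3. Results that change without these arrays are given both ways.

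The factors that define the B lineage were dim in both DC subsets. Pou2af1 had the clearest contrast. Its signals were 13140, 13460 and 14630 in B cells, 542.7, 406.7 and 682 in CD4 T cells, and 569.4, 735.5 and 699.7 in CD8 T cells. The wild-type DC arrays read 49.4, 64.5 and 60.3 with 33D1 and 66.2, 47.6 and 22.6 with DEC205, and those of Flt3L mice lay between 47 and 103.7. No DC array reached the lowest T cell array, and the 4 DC groups overlapped one another. T cells stood at 4.41% of the B cell mean.

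Ebf1 read 3562, 3284 and 2980 in B cells and between 1.8 and 32.6 on all 12 DC arrays. CD4 T cells had 1.9 to 10 and CD8 T cells 27.1 to 53.1, so the DC signals covered the range of the CD4 T cells. Pax5 was measured less sharply, with 1174, 818.9 and 574 in B cells. 33D1_WT gave 162.7, 104.9 and 246.1, DEC205_WT gave 117.1, 334.1 and 96.2, and the T cell arrays ran from 150.4 to 511.9. DC and T cell signals of Pax5 overlapped, while the B cell arrays lay above every other array.

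Bach2, the repressor of the plasma cell step, was the only B lineage member whose signal separated the DC subsets. B cells gave 5356, 4624 and 3369, CD4 T cells 2620, 3146 and 3104, and CD8 T cells 2333, 1992 and 2348. 33D1_WT read 210.4, 288.5 and 203.1 and DEC205_WT 125.9, 116.6 and 49.2. In Flt3L mice the signals were 432.1, 558.3 and 690.1 for 33D1 and 101.9, 239 and 286.2 for DEC205. On this probe set the 33D1 arrays lay above the DEC205 arrays within each kind of mouse, and all lymphocyte arrays lay above all DC arrays. The means of 33D1_WT and 33D1_Flt3L were 5.26% and 12.6% of the B cell mean, and DEC205_WT stood at 2.19%. Another Bach2 probe set did not keep these gaps. On it 33D1_WT (237.2 to 327.6) overlapped DEC205_WT (203.5 to 257.7) and CD4 T cells (266 to 624.7). In a bulk sample fewer cells with a transcript and less of it per cell cannot be told apart.

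The T lineage factors were dim in DCs. Bcl11b read 8306, 8498 and 8088 in CD4 T cells and 5193, 5554 and 6032 in CD8 T cells. All DC arrays lay between 8.8 and 87.1, and the B cell arrays between 10.9 and 19.8. The highest DC signals, 60.5 and 87.1, were those of DEC205_WT replicate 3 and DEC205_Flt3L replicate 3. Lef1 had 9266, 11760 and 9689 in CD4 T cells, 7732, 9993 and 10380 in CD8 T cells and 401.2, 316.6 and 291.9 in B cells. The DC arrays ran from 88.9 to 172.8, below every B cell array and without a gap between the DC groups.

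Of the 3 factors used by both lymphocyte lineages, Ikzf1 alone was bright in every group. It read 5805, 5992 and 5247 in 33D1_WT and 3355, 2809 and 3511 in DEC205_WT. B cells gave 6284, 6779 and 7338, CD4 T cells 8725, 10550 and 9485, and CD8 T cells 9741, 9236 and 10000. 33D1_Flt3L overlapped the B cells with 6341, 5549 and 5636, and DEC205_Flt3L had 3055, 3168 and 2683. The mean of 33D1_WT was 83.5% of that of B cells and 59.3% of that of CD4 T cells. DEC205_WT reached 47.4% and 33.6%.

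Ets1 was split far more sharply. Lymphocytes were bright, with 17540, 16880 and 15800 in B cells, 25030, 22020 and 21410 in CD4 T cells and 20750, 19960 and 20240 in CD8 T cells. 33D1_WT gave 407.1, 551.1 and 430.8 and 33D1_Flt3L 287.6, 127.6 and 233.3. The DEC205 arrays read 16.3, 8.5 and 8.7 in wild-type mice and 2.6, 4.3 and 5.5 in Flt3L mice. From highest to lowest the order was CD4 T, CD8 T, B, 33D1_WT and 33D1_Flt3L, with no overlap between neighbours, and both DEC205 groups lay below at the floor of the scale, where they have no order. 33D1_WT held 2.77% of the B cell mean on this probe set. Another Ets1 probe set did not keep this order within the DCs. It had means of 297.5 in 33D1_WT, 215.1 in DEC205_Flt3L, 214.4 in 33D1_Flt3L and 183.6 in DEC205_WT, against 3616 in B cells. The means of the remaining probe sets kept the order, although their 33D1_Flt3L and DEC205_WT arrays overlapped. On the dimmer of them every DC group overlapped every other, even 33D1_WT (242.5 to 285.6) and DEC205_Flt3L (175.8 to 245.1). There B cells (2551 to 2961) and CD8 T cells (2791 to 3441) overlapped too.

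On its brightest probe set Ikzf3 was also higher on the 33D1 than on the DEC205 arrays. It read 4188, 4326 and 4032 in B cells, with 1131 to 1728 in CD4 and 1455 to 1948 in CD8 T cells. The signals were 318.3, 283.9 and 311.2 in 33D1_WT, 216, 186.4 and 207.6 in 33D1_Flt3L, 67.5, 66.4 and 87.1 in DEC205_WT and 78.6, 76.7 and 63 in DEC205_Flt3L. The T cell groups overlapped each other, as did the DEC205 groups, and no other neighbours in the order did. 33D1_WT held 7.28% of the B cell mean and 21.9% of the CD4 T cell mean. The other Ikzf3 probe sets did not keep these gaps. The dimmest had means of 47.13 in DEC205_Flt3L and 42.83 in 33D1_Flt3L. On it 33D1_WT (62 to 90.2) overlapped CD4 T cells (85 to 179.2). On the remaining probe set 33D1_Flt3L (105.7 to 160.3) overlapped both 33D1_WT (131 to 200.1) and DEC205_Flt3L (59.1 to 106.6).

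**Figure D1:**
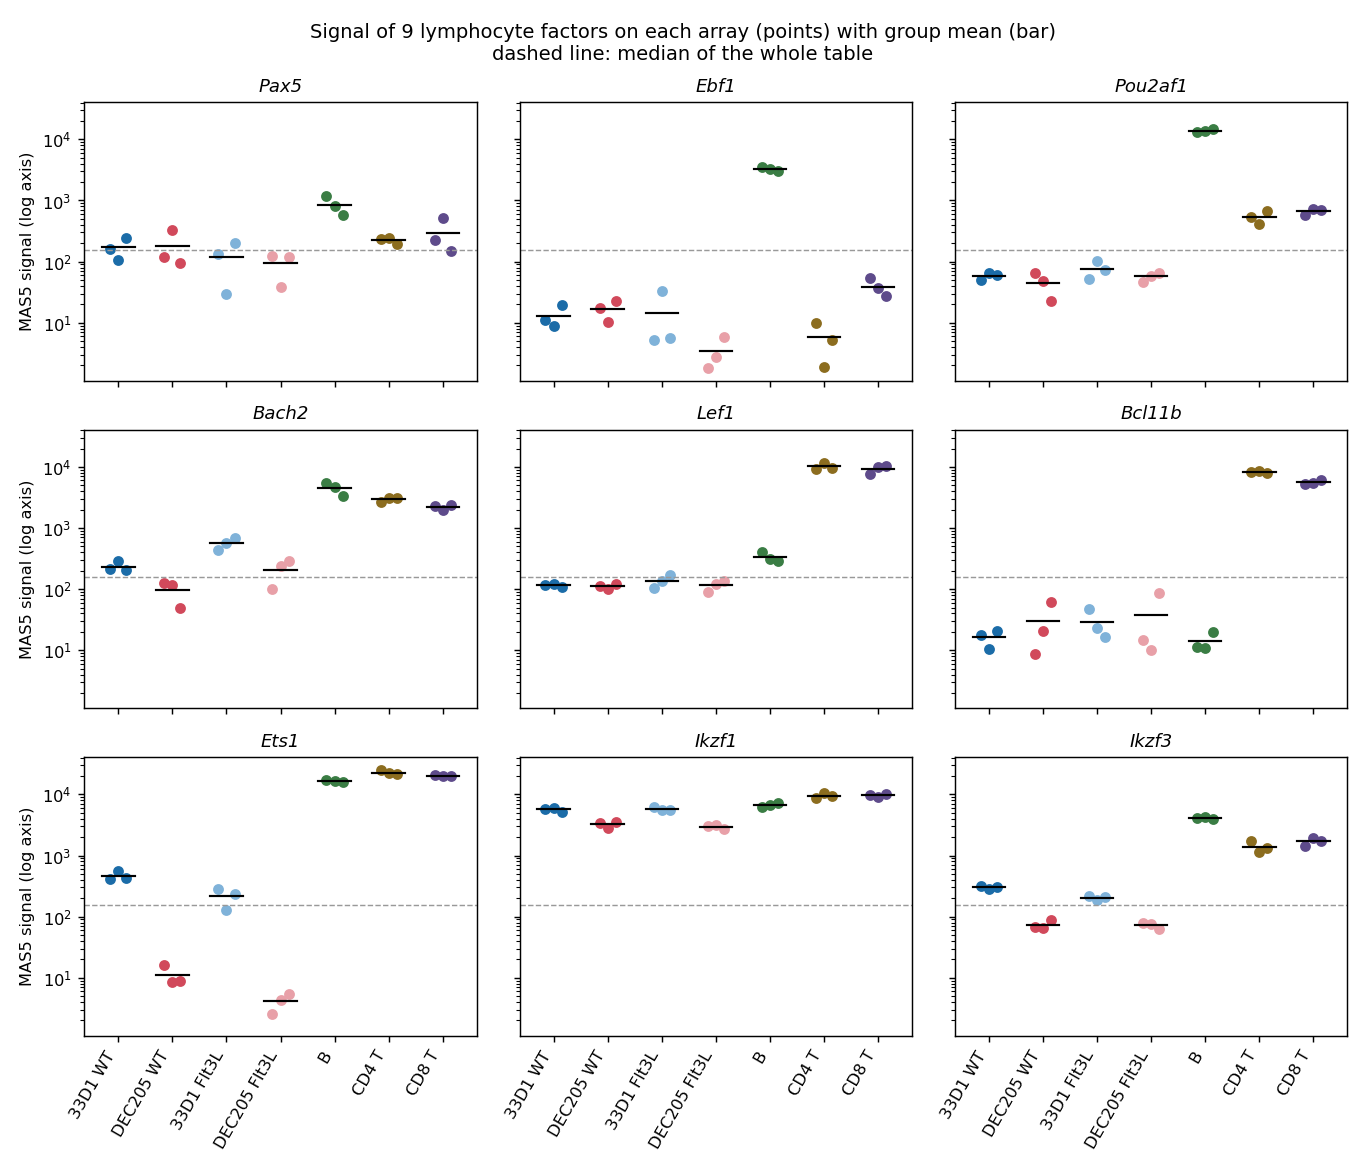
Signal (log axis) of the 9 measured lymphocyte factors in the 7 groups, with 1 point per array, a bar at each group mean and a dashed line at 156.3, the median of the table. Ikzf1 is bright everywhere, the 33D1 points of Ets1, Ikzf3 and Bach2 lie above the DEC205 points of the same mice, and the DC points of Pou2af1, Ebf1, Lef1 and Bcl11b lie below or near the dashed line.

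The subsets of wild-type DCs differed in 4 of the 9 members, all higher in 33D1 DCs. Over all genes tested, 23.1% were called in either direction and 11.3% were called higher. Ets1 differed by 3.09 ± 0.16 (SE, limma, adjusted p = 6.52e-12). Ikzf3 differed by 1.53 ± 0.15 (adjusted p = 8.37e-08), Ikzf1 by 0.81 ± 0.11 (adjusted p = 4.9e-06) and Bach2 by 0.99 ± 0.26 (adjusted p = 0.00638). The median over the 9 members was 0.21, and that of all genes 0.04. Without DEC205_WT replicate 3, the Bach2 difference was 0.72 and was not called (limma, adjusted p = 0.058). The same held without both arrays that stood apart (0.72, adjusted p = 0.0563), whereas Ets1 (3.06), Ikzf3 (1.61) and Ikzf1 (0.88) stayed called.

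For the other 5 members the wild-type subsets were not told apart by the test. On the log2(signal + 48.6) scale the 95% interval of the difference ran from -0.23 to 0.64 for Pou2af1, from -0.3 to 0.39 for Lef1, from -0.63 to 0.47 for Ebf1, from -0.79 to 0.34 for Bcl11b and from -0.9 to 0.94 for Pax5. Because the offset compresses dim signals, these intervals do not bound the fold change of the transcripts. The probe sets given for Pou2af1, Ebf1 and Bcl11b were below 156.3 on every DC array, and another Bcl11b probe set had DC group means of 145.9 to 197.8, against 159.7 in B cells and 2488 or more in T cells.

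The comparison was repeated in the pools from Flt3L mice, where 23.5% of all genes were called and 11.7% called higher. The same 4 members were higher in 33D1 DCs and none was lower. Ets1 differed by 2.28 ± 0.16 (SE, limma, adjusted p = 5.45e-10), Bach2 by 1.30 ± 0.26 (adjusted p = 5.36e-04), Ikzf3 by 1.05 ± 0.15 (adjusted p = 1.59e-05) and Ikzf1 by 0.97 ± 0.11 (adjusted p = 4.55e-07).

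**Figure D2:**
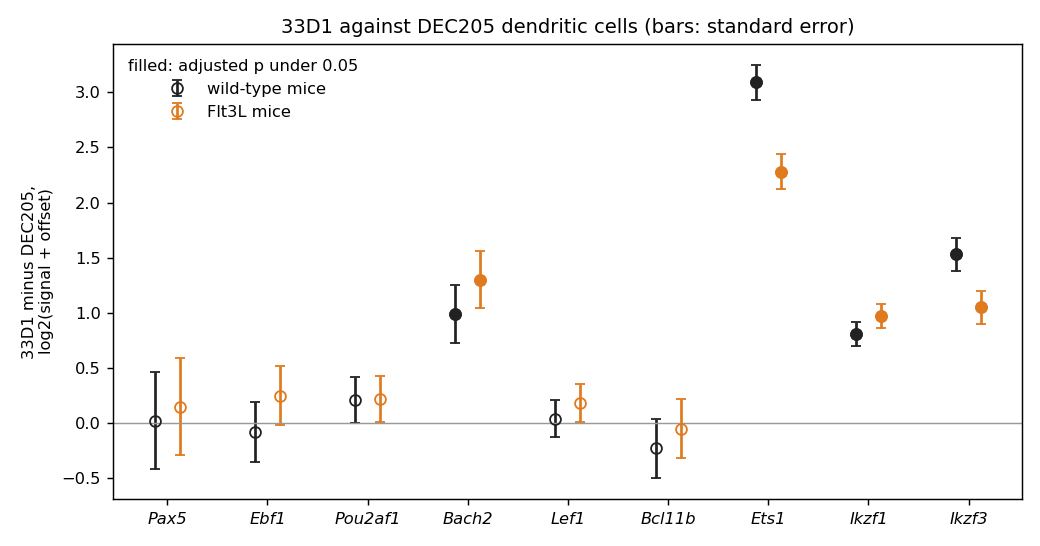
Difference 33D1 minus DEC205 in log2(signal + 48.6) for the 9 members, in wild-type mice (black) and Flt3L mice (orange), with standard errors as bars and filled points where the adjusted p was under 0.05. Bach2, Ets1, Ikzf1 and Ikzf3 are above 0 in both kinds of mouse, from 0.81 for Ikzf1 to 3.09 for Ets1.

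The size of these differences depended on the offset and on the probe set. With offsets of 10 and 200 in place of 48.6, the wild-type difference of Ets1 was 4.49 and 1.64, that of Ikzf3 1.92 and 0.88, and that of Bach2 1.26 and 0.55, all still called. The mean over the kept probe sets of a gene gave 1.49 for Ets1, 0.97 for Ikzf3 and 0.60 for Bach2, also called. Ets1 was measured by 4 probe sets. Their wild-type differences were 3.09, 2.05 (limma over all probe sets, adjusted p = 1.54e-06), 0.59 (adjusted p = 0.0119) and 0.22 (adjusted p = 0.478), so 3 of the 4 were called. In Flt3L mice 2 of the 4 were called, at 2.28 and 1.33. The 2 probe sets with the smallest differences had group means of 183.6 to 297.5 and of 202.1 to 257.5 in the DCs, and of 2765 to 5806 in lymphocytes.

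Ikzf1 had 2 probe sets, both called in wild-type mice (0.81 and 0.86) and 1 of them in Flt3L mice. For Ikzf3, 2 of 3 were called in wild-type mice and 1 of 3 in Flt3L mice. Bach2 had 1 of 3 called in wild-type mice and 2 of 3 in Flt3L mice. No probe set of these members was called lower in 33D1 DCs.

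**Figure D3:**
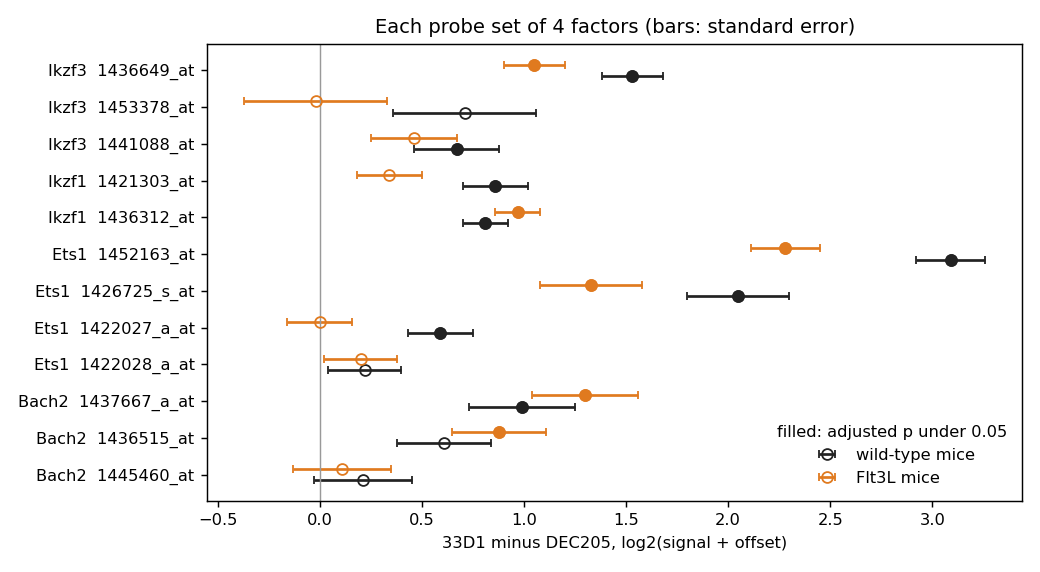
Difference 33D1 minus DEC205 in log2(signal + 48.6) for each kept probe set of Bach2, Ets1, Ikzf1 and Ikzf3, in wild-type (black) and Flt3L mice (orange), with standard errors and filled points where called over all probe sets. The Ets1 probe sets range from 0.22 to 3.09 in wild-type mice.

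Flt3L melanoma moved 2 of the 9 members in 33D1 DCs, in opposite directions, where 1.01% of all genes were called (0.851% higher, 0.158% lower). Ets1 was lower in Flt3L mice, by -0.99 ± 0.16 (SE, limma, adjusted p = 0.00223). Bach2 was higher, by 1.10 ± 0.26 (adjusted p = 0.0407). Ikzf3 differed by -0.49 ± 0.15 and was not called (adjusted p = 0.165). The Bach2 call sat at the edge of the threshold and was lost without any one of the 3 33D1_WT arrays, without 33D1_Flt3L replicate 2 or 3, B_cells replicate 2 or CD4_T_cells replicate 3, and without both arrays that stood apart (0.95, adjusted p = 0.14). By probe set, Bach2 had 1 of 3 called (1.10, 0.74 and 0.06) and Ets1 had 2 of 4 (-0.99, -1.10, -0.40 and -0.10). The mean over probe sets gave 0.63 for Bach2, not called (adjusted p = 0.118), and -0.65 for Ets1, still called (adjusted p = 0.00876). Centring each array on its median left neither call (Ets1 -0.95, adjusted p = 0.0555; Bach2 adjusted p = 0.0601), and fitting the compared groups alone left Ets1 uncalled (adjusted p = 0.0732).

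In DEC205 DCs 0 of the 9 members were called between Flt3L and wild-type mice, where 2.11% of all genes were. One of them, Bach2, had an unadjusted p under 0.05 (0.79 ± 0.26, limma, adjusted p = 0.144). Without DEC205_Flt3L replicate 1 its difference was 1.14 (adjusted p = 0.0176). The change of the subset difference between wild-type and Flt3L mice was also called for 0 of 9 members, against 0.105% of all genes (14 genes, 85.7% of them higher, and 3 genes, 100% higher, after median centring). It was largest for Ets1, at -0.81 ± 0.23 (limma, unadjusted p = 0.00223, adjusted p = 0.366), followed by Ikzf3 at -0.48 ± 0.22 (unadjusted p = 0.0392, adjusted p = 0.991). The Bach2 responses of the subsets to Flt3L melanoma were likewise not shown to differ (0.31 ± 0.36, adjusted p = 1).

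Set against B cells, 33D1_WT was lower in 7 of the 9 members and DEC205_WT in 8, where 18.3% and 20.7% of all genes were called lower. None was higher in either subset. In 33D1 DCs the differences were -7.02 ± 0.21 for Pou2af1, -5.75 ± 0.27 for Ebf1, -5.05 ± 0.16 for Ets1, -3.98 ± 0.26 for Bach2, -3.58 ± 0.15 for Ikzf3, -2.04 ± 0.44 for Pax5 and -1.21 ± 0.17 for Lef1 (SE, limma). Ikzf1 was not called in 33D1 DCs, at -0.26 with a 95% interval from -0.48 to -0.03 (limma, adjusted p = 0.0748), with adjusted p from 0.0181 (-0.27, quantile normalization) to 0.887 (-0.03, mean of its probe sets) over the alternatives. Its other probe set differed by 0.20 and was not called (adjusted p = 0.418). In DEC205 DCs Ikzf1 was lower by -1.07 ± 0.11 (adjusted p = 3.96e-08). DEC205 DCs were further below B cells for Ets1 (-8.14 ± 0.16), Ikzf3 (-5.12 ± 0.15) and Bach2 (-4.97 ± 0.26). Bcl11b was dim in B cells and in both DC subsets and was not called. On 1 of 3 Bach2 probe sets 33D1 DCs were not called against B cells (-0.53, limma over all probe sets, adjusted p = 0.113).

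Against the mean of the CD4 and CD8 T cells, 7 of the 9 members were lower in each DC subset, where 24.7% (33D1_WT) and 27.5% (DEC205_WT) of all genes were. Bcl11b was lower by -6.73 ± 0.24 in 33D1 DCs and by -6.50 ± 0.24 in DEC205 DCs, and Lef1 by -5.88 ± 0.14 and -5.93 ± 0.14 (SE, limma). Ets1 differed by -5.41 ± 0.14 and -8.50 ± 0.14. Ikzf1 showed the smallest called differences, -0.75 ± 0.09 and -1.57 ± 0.09. Pou2af1, a B lineage coactivator, was also below T cells, by -2.60 ± 0.18 and -2.80 ± 0.18. Pax5 and Ebf1 were not called in either subset. In 33D1 DCs 1 of 3 probe sets was not called for Bach2 (-0.4, limma over all probe sets, adjusted p = 0.143). The same held for 1 of 3 for Ikzf3 (-0.59, adjusted p = 0.127).

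Over all genes the median difference from T cells was -0.13 in 33D1_WT and -0.16 in DEC205_WT. Median centring moved these to -0.02 and 0.05, and moved the share of higher calls among all calls from 44.1% to 56.3% and from 44.1% to 61.1%. The called member differences from T cells kept their direction and their call under every alternative run.

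**Figure D4:**
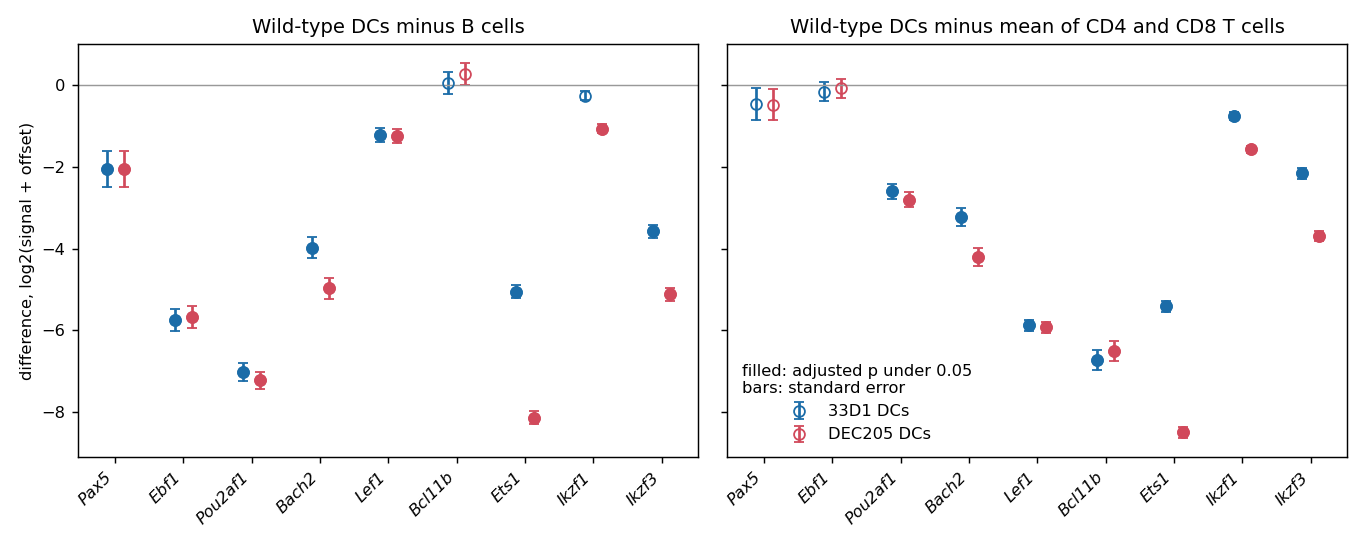
Difference of wild-type 33D1 (blue) and DEC205 DCs (red) from B cells (left) and from the mean of both T cell groups (right), in log2(signal + 48.6), with standard errors and filled points where called. Most members lie far below 0, Ikzf1 lies between -0.26 and -1.57, and the subsets part for Ets1, Ikzf3, Bach2 and Ikzf1.

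The lymphocyte groups divided the members along their lineages. B cells exceeded T cells in 5 members and were lower in 3, where 26.9% of all genes were called (13.1% higher, 13.9% lower). Ebf1 (5.59 ± 0.23), Pou2af1 (4.42 ± 0.18), Pax5 (1.58 ± 0.38), Ikzf3 (1.42 ± 0.13) and Bach2 (0.76 ± 0.22, adjusted p = 0.0122) were higher in B cells by limma. Bcl11b (-6.78 ± 0.24), Lef1 (-4.68 ± 0.14) and Ikzf1 (-0.50 ± 0.09) were lower. The Bach2 call was lost without B_cells replicate 1 (0.62, adjusted p = 0.0951) or replicate 2 (0.72, adjusted p = 0.0547), and the Ikzf1 call under median centring (-0.36, adjusted p = 0.18). Ets1 was not called (-0.36, adjusted p = 0.0672), and 2 of its 4 probe sets were called lower in B cells. It was called lower by limma with the mean of its probe sets (adjusted p = 0.00612) and an offset of 200 (adjusted p = 0.0103). The call also came with the compared groups alone (adjusted p = 0.027) and with replicate number as a block in the Flt3L DC groups (adjusted p = 0.0435). Leaving out 33D1_Flt3L replicate 1 (adjusted p = 0.0354) or replicate 2 (adjusted p = 0.00987) gave it as well. Median centring moved the share of higher calls in this comparison from 48.5% to 60.5%.

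Between CD8 and CD4 T cells 0 of 9 members were called by limma, where 3.26% of all genes were. Ebf1 (0.68 ± 0.27) had an unadjusted p of 0.0177, and it was the only member under 0.05. Its signals there were near the floor, 1.9 to 10 in CD4 and 27.1 to 53.1 in CD8 T cells. The other kept Ebf1 probe sets did not share this difference (0.07, 0.05 and -0.01, not called). Bcl11b lay just outside that line (-0.57 ± 0.27, unadjusted p = 0.0501), although its CD4 and CD8 arrays did not overlap. The other Bcl11b probe sets gave -0.70, -0.69 and -0.51 and were not called either.

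Markers of other cells were read on the same arrays. Over all genes tested, 23.1% were called between the wild-type subsets (11.3% higher) and 23.5% between those of Flt3L mice (11.7% higher). Of 11 T cell markers tested (13 listed), 1 was higher in wild-type 33D1 than in DEC205 DCs, and that was Cd5 (1.12 ± 0.15, limma, adjusted p = 6.34e-06). Their summed signal was 1256 to 1281 in 33D1_WT and 608.2 to 728.2 in DEC205_WT, against 90020 to 107900 in T cells. In Flt3L mice the sums were 1134 to 1323 and 583.4 to 708.5. The defining T cell markers in 33D1_WT stood at 0.082% (Cd3d), 0.643% (Cd3e) and 0.459% (Cd3g) of the T cell mean, and in DEC205_WT at 0.077%, 0.438% and 0.27%. On their brightest probe sets, Ets1 in 33D1_WT stood at 2.03% of the CD4 T cell mean and Ikzf3 at 21.9%. These shares use CD4 T cells alone and were not ranked against those of the markers.

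Of 9 B cell markers tested (11 listed), 33D1 DCs of wild-type mice exceeded DEC205 DCs in 4 and fell below them in 1, and in Flt3L mice in 3 and 1. Cd79b, Cd22 and Blk were among the 4 higher in wild-type mice, and their differences are given in the next paragraph. The sums were 14290 to 18670 in 33D1_WT, 10430 to 12510 in DEC205_WT and 170900 to 188600 in B cells. Sorted T cells had sums like those of 33D1_WT, 15960 to 17410 in CD4 and 14800 to 18760 in CD8 T cells. Cd79a, a signalling chain of the B cell receptor, stood at 0.29% of the B cell mean in 33D1_WT and 0.289% in DEC205_WT. Ms4a1, which encodes CD20, stood at 4.5% and 7.19%. On their brightest probe sets, 33D1_WT stood at 2.77% of the B cell mean for Ets1, 5.26% for Bach2 and 7.28% for Ikzf3. Such shares depend on the probe set and were not ranked between genes. Another Bach2 probe set had means of 282.9 in 33D1_WT and 428.6 in B cells. Of 6 macrophage and monocyte markers tested (9 listed), 2 were higher and 2 lower in 33D1_WT, and their sums were 11410 to 15520 there and 2927 to 4955 in DEC205_WT. Plasmacytoid DC markers (6 tested of 7) gave sums of 2510 to 2786 and 3970 to 4116, with 1 higher and 1 lower. The sums of these markers were 24640 to 26560 in B cells, 1834 to 2381 in CD4 and 6093 to 10250 in CD8 T cells. The part of other cells in the results was not tested.

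Some genes that Pax5 and Ebf1 control in B cells were higher in 33D1 DCs, where neither factor was called. Of 8 genes of the B cell receptor pathway under Pax5 and Ebf1, 7 were tested. Their median wild-type subset difference was 2.34 against 0.04 for all genes. Of the 7, 4 were higher in wild-type 33D1 DCs, where 11.3% of all genes were. They were Cd72 (3.34 ± 0.27) and Cd22 (3.04 ± 0.28), inhibitory receptors of B cells, Cd79b (2.34 ± 0.26), the partner of Cd79a, and Blk (2.34 ± 0.38), a kinase of the Src family (limma). Cd79a, Blnk and Vpreb3 were not called. Cd79a, Cd79b, Cd22 and Blk were also in the list of B cell markers, so they are not separate observations. In Flt3L mice 3 of the 7 were higher, where 11.7% of all genes were. The median of the 7 was smaller there, 0.76 against 0.04 for all genes. All 7 were lower in both DC subsets than in B cells.

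Other factors of the B lineage divided the DC subsets in both directions. Over all genes tested, 23.1% were called in wild-type mice (11.3% higher). Of 16 of these factors tested in wild-type mice, 33D1 DCs exceeded DEC205 DCs in 7 and fell below them in 5, with a median of 0.23. Irf4 (3.47 ± 0.38), a factor of plasma cells and of CD8-negative DCs, Spib (3.47 ± 0.29), an Ets family factor, and Relb (2.42 ± 0.18), a subunit of NF-kB, were higher. Irf8, which CD8-positive DCs require, was lower (-6.12 ± 0.42). In Flt3L mice 7 were higher and 1 lower, where 23.5% of all genes were called and 11.7% called higher.

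The next lists are read beside the same shares of all genes, 23.1% called and 11.3% higher in wild-type mice. In Flt3L mice the shares were 23.5% and 11.7%. Of 15 other T lineage factors tested (16 listed), wild-type 33D1 DCs had more of 5 and less of 2 than DEC205 DCs, with a median of 0.06. The 4 with the smallest adjusted p were Satb1 (1.57 ± 0.13), a chromatin organiser of thymocytes, Foxp1 (1.21 ± 0.13), a forkhead factor, Tbx21 (3.03 ± 0.45), which encodes T-bet, and Runx3 (0.98 ± 0.19), a factor of CD8 T cells. Flt3L mice gave 6 higher and 1 lower. Among paralogs of the members 17 of 21 were tested, and 4 were higher and 0 lower, with a median of 0.30. They were Bach1 (1.37 ± 0.13), the relative of Bach2, Pou2f2 (1.38 ± 0.28), an octamer factor, Bcl11a (1.16 ± 0.27), the relative of Bcl11b, and Elf1 (0.37 ± 0.13), an Ets family factor. Of 6 tested Wnt feedback targets of Tcf7 and Lef1 (8 listed), Ccnd1, which encodes cyclin D1, was higher (1.93 ± 0.15) and the others, Lef1 among them, were not called. Pou2f2 and Bcl11a were in both the B lineage list and the paralog list.

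The genes whose log2 signals ran closest to each member over the 21 arrays are given by Pearson correlation, as a description only, because the arrays fall into a few cell types. Ebf1 was closest to immunoglobulin genes (Igk, r = 0.991; Igkv15-103, r = 0.988; Iglv1, r = 0.985), and Pou2af1 to Cxcr5, the follicle homing receptor (r = 0.989), Ralgps2 (r = 0.978) and Ttpal (r = 0.976). Lef1 ran with Znrf3, Cd3e (both r = 0.992) and Lat (r = 0.991), and Bcl11b with Prkcq, Trav9d-3 and Cd3d (all r = 0.992). Ets1 was closest to Tbc1d10c (r = 0.992), Slamf6 (r = 0.99) and Rasgrp2 (r = 0.989). For Ikzf3 the closest were Sh3bp5, Sbk1 (both r = 0.984) and Slc50a1 (r = 0.982), and for Bach2 Hivep2 (r = 0.973), Sbk1 (r = 0.971) and Grk6 (r = 0.97). Ikzf1 was closest to Cdk17 (r = 0.978), Ifit1bl1 (r = 0.977) and Satb1 (r = 0.973). Pax5 had the lowest values, with Akap12 (r = 0.875), Ptpn14 (r = 0.872) and Khnyn (r = 0.868). Among the members themselves, Lef1 and Bcl11b (r = 0.977) and Ets1 and Ikzf3 (r = 0.96) ran closest.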

How the data were processed

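Spleen cells were profiled on 21 Affymetrix arrays, 3 in each of 7 groups taken from the sample titles. Per the labels' protocols, RNA was extracted with Qiagen columns and 5 ug was made into biotinylated cRNA. The deposited unit is a linear intensity per probe set. The submitters' processing notes name GCOS and MAS5 (versions not given in the sources used here). Every array had a 2% trimmed mean of 500, so brightness had been equalised before deposit, and detection calls were not used.

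Of 45101 probe sets, 64 controls were left out, and the platform annotation gave 34945 a single symbol, 932 several and 9160 none. The Entrez identifiers of 34754 were found in RefSeq, and 0 symbols changed. Probe sets above 156.3 on at least 3 arrays were kept (23946 with a single symbol). The brightest per gene gave 13284 genes. log2(signal + 48.6) entered a limma model with 7 group means and an intensity trend (limma 3.58.1, R 4.3.3, 14 residual degrees of freedom). The offset is the 25th percentile. Tests were two-sided, and the script was tested on simulated data. Precision is limited by having 3 arrays per group. The text names every measured member, up to 4 called genes per other list with the smallest adjusted p in the wild-type subset comparison, the defining markers, and the 3 genes closest to each member. Cd5 and the genes showing that 2 arrays stood apart (Tgm2, Irf8) were chosen after their values were seen. The members and lists were chosen with earlier results of these data known. Promoter motifs and the window length were also set after seeing the sequences, and promoters come from RefSeq on GRCm38.p6. The alternatives changed the offset, filter, scaling, variance trend, samples fitted, probe set rule and replicate block, and left out arrays. Arrays of the same replicate number were compared by the correlation of their deviations from the group means. All 3 correlations were over 0.1 only for the 33D1 and DEC205 DCs of Flt3L mice. Whether these arrays are paired was not established.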

Additional observations from a re-analysis of the deposited data

How the results depend on the processing

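Over 11 comparisons the 9 members gave 99 differences, 47 of them called. Under 13 alternatives and 21 left-out arrays, 0 called differences changed sign and 42 kept their call throughout; the 5 that lost it are given with their results. Of the 52 uncalled differences, 22 changed sign and 5 gained a call under some setting. The cause was not tested.

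Counts of genes called moved most where few were called. For the change of the subset difference (14 genes) the counts were 9 with an offset of 10, 34 with 200, 3 with median centring, 8 with the replicate block, 6 without the trend, 4 with probe set means, 8 over all probe sets and 3 without the 2 arrays that stood apart (3 to 17 leaving out each array). For Flt3L in 33D1 DCs (134) they were 226 with an offset of 200, 63 with median centring, 87 without the trend, 286 with the compared groups alone and 85 without the 2 arrays (53 to 153 leaving out each). For Flt3L in DEC205 DCs (280) median centring gave 91 (94 to 307 leaving out each), and for CD8 against CD4 T cells (433) it gave 255 and the compared groups alone 219.

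Members called for Flt3L in 33D1 DCs (2) fell to 1 with an offset of 10, no filter, the replicate block, no trend, the compared groups alone, probe set means or without the 2 arrays, and to 0 with median centring (1 to 2 leaving out each array). Between CD8 and CD4 T cells the count of 0 became 1 with an offset of 200 (Bcl11b), without the trend (Ebf1) and with the compared groups alone (Bcl11b). In DEC205 DCs under Flt3L it ran from 0 to 1. The uncalled change of the Bach2 subset difference ran from -0.04 to 0.58 leaving out each array. Of 63 same-number pairs of arrays the deviations correlated from -0.378 to 0.355, with 13 over 0.1. In 1 of 21 pairs of groups, the 33D1 and DEC205 DCs of Flt3L mice, all 3 correlations were over 0.1 (0.234, 0.145 and 0.157). A replicate block in these groups alone, added after seeing the data, left 139 genes called for Flt3L in 33D1 DCs and changed no member call other than that of Ets1 between B and T cells. Fitting the number as a replicate block in all groups lost the Bach2 call for Flt3L in 33D1 DCs (limma, adjusted p = 0.0524).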
